A study of Mus musculus with 36 samples.

Results

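Tuft cell genes were described in mouse intestinal organoids through 7 members, named by symbol and matched to the Ensembl identifiers of the count files. These were Pou2f3, Il25, Il17rb, Trpm5, Alox5ap, Avil and Dclk1, which are 7 of the 52636 genes listed in each library. Organoids are epithelial cultures grown in Matrigel, here from jejunal crypts of 6 C57BL/6 mice, whose age the labels do not give. RNA was sequenced from 36 cultures, 6 in each of 6 conditions, after 2 days of treatment. Control IgG was given in complete media, in QCM, in SCM and with Wnt5a, and anti-Ptk7, an antibody against the Wnt co-receptor Ptk7, was given in SCM and with Wnt5a. QCM was collected from quiescent (serum deprived) and SCM from senescent (irradiated or doxorubicin-treated) mouse embryonic fibroblasts, so neither medium comes from cells of the intestine. Wnt5a, a noncanonical Wnt ligand, was added to complete media. Totals ranged from 9581589 to 21029769 counts per library, with a median of 13490071.

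Tuft cells are rare chemosensory cells of the gut epithelium. They read luminal signals with the machinery of taste receptor cells, and on sensing parasites or their metabolites they release Il25, which drives a type 2 immune response whose cytokines in turn expand the tuft cell pool. The POU domain factor Pou2f3 is required for them to form. In whole-organoid RNA, a higher value of a tuft cell gene in a condition can come from more such cells or from more RNA per cell, and these cannot be told apart.

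With added Wnt5a, organoids had higher Avil, Trpm5 and Dclk1, which encode an actin-binding protein of the tuft cell, its taste transduction channel and its classical marker kinase. Avil rose 5.08-fold, Dclk1 3.40-fold and Trpm5 2.50-fold over complete media. The call of Avil held in all 45 alternative settings, that of Trpm5 in 41 and that of Dclk1 in 39, and with only the 2 conditions in the model Avil alone was called. Pou2f3, the master regulator, and Il17rb, a receptor subunit for Il25, were not called in any of the 7 comparisons. With edgeR on all libraries and no block for the replicate number, neither SCM nor anti-Ptk7 gave a call for any member. For SCM against complete media, however, Avil was called by DESeq2, by edgeR with that block and in 5 of the fits without 1 library. Il25 and Alox5ap did not reach the level set for detection.

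A member was taken as detected at a mean over the 36 libraries of 0.5 CPM or more (the count of a gene relative to the TMM-scaled total of its library). On that basis 5 of the 7 members were detected, and the same 5 passed the low-count filter and were tested. The means were 6.81 CPM for Avil, 4.11 for Trpm5, 2.65 for Pou2f3, 2.64 for Dclk1 and 2.25 for Il17rb. On the CPM scale these lay at percentiles 20.1 to 32.3 of the 15497 genes tested. Per kilobase of coding length, the scale on which genes can be compared, the order was Avil (2.77 CPM per kb), Pou2f3 (2.05), Il17rb (1.36), Trpm5 (1.11) and Dclk1 (1.03). Counting error alone gave a coefficient of variation of 10.5% for Avil to 18.1% for Il17rb, whereas libraries of the same condition varied by 36.2% for Avil to 63.3% for Dclk1. That spread also holds the sampling of molecules when little RNA is amplified, which was not measured apart from it.

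Alox5ap, which activates 5-lipoxygenase in leukotriene synthesis, had 125 counts in all, in 21 of the 36 libraries, and a mean of 0.264 CPM. Il25, the alarmin cytokine of tuft cells, had 14 counts in 3 libraries, and a mean of 0.0251 CPM. Of these 14 counts, 9 were in SCM + IgG replicate 1, 4 in Wnt5a + IgG replicate 4 and 1 in SCM + anti-Ptk7 replicate 3. Il25 had no count in any library of complete media, QCM or Wnt5a + anti-Ptk7, and a count of 0 in a library allows a level of up to 0.141 to 0.313 CPM (3 counts, counting error only). Alox5ap ranged from 0 to 0.564 CPM in complete media (median 0.0417) and from 0 to 1.77 CPM in Wnt5a + IgG (median 0.167). In Wnt5a + anti-Ptk7, all 6 libraries had at least 2 Alox5ap counts, with values from 0.137 to 1.08 CPM, so the conditions overlapped. Neither gene was tested.

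**Figure D1:**
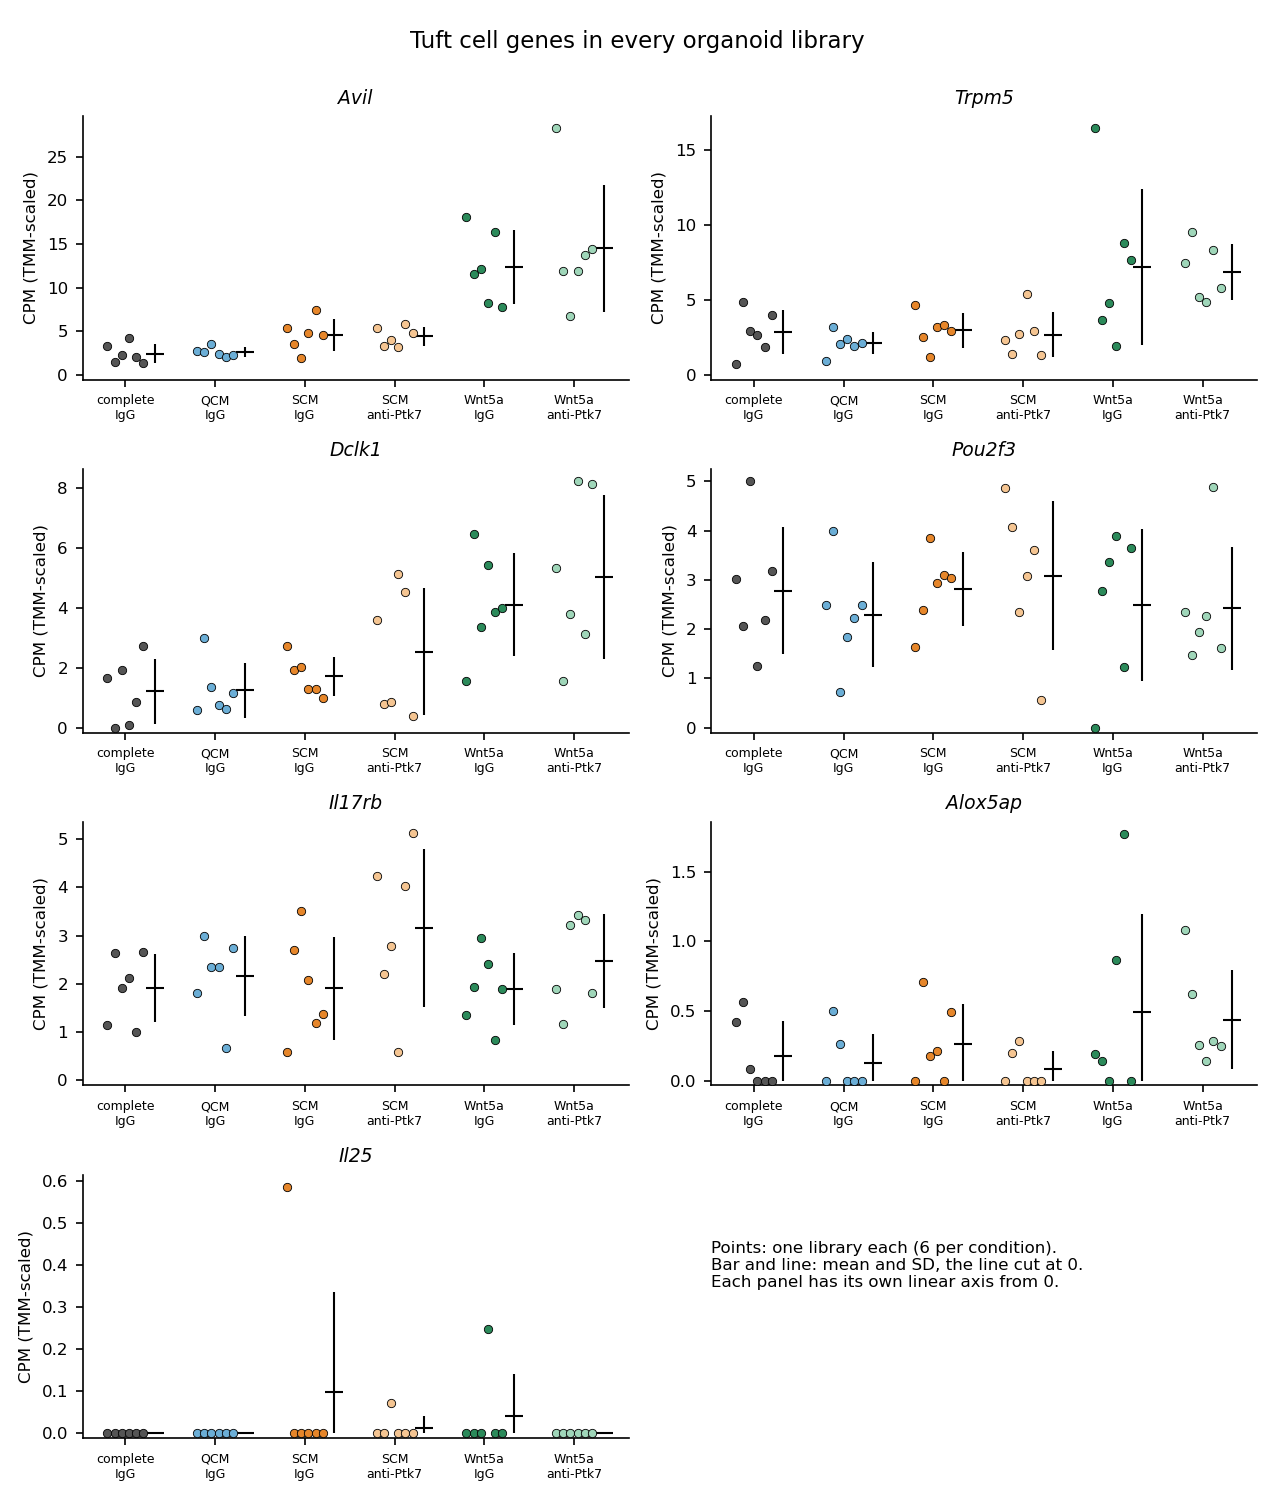
The vertical axis of each panel is the TMM-scaled CPM of 1 gene, each point is 1 of 6 libraries of the condition on the horizontal axis, and the bar and line give the mean and SD. The 6 Wnt5a + IgG points of Avil lie between 7.72 and 18.1 CPM, all above the complete media points (1.33 to 4.17 CPM), whereas those of Il17rb, and of Pou2f3 except for 1 library at 0, lie among the points of the other conditions.

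In the GRCm38 annotation, Avil (ENSMUSG00000025432) lies on the plus strand of chromosome 10 (127000709 to 127020994), Trpm5 (ENSMUSG00000009246) on the minus strand of chromosome 7 (143069153 to 143094642) and Dclk1 (ENSMUSG00000027797) on the plus strand of chromosome 3 (55242364 to 55539068). Pou2f3 (ENSMUSG00000032015) lies on the minus strand of chromosome 9 (43123939 to 43210369) and Il17rb (ENSMUSG00000015966) on the minus strand of chromosome 14 (29996135 to 30008896). Il25 (ENSMUSG00000040770) lies on the plus strand of chromosome 14 (54932695 to 54935837) and Alox5ap (ENSMUSG00000060063) on the plus strand of chromosome 5 (149264767 to 149288153). Promoter windows of 300 bases, 250 before and 50 after the start site, were matched in RefSeq (GRCm38.p6) for 4 members, with 2 windows for Dclk1. The octamer ATGCAAAT, bound by POU class 2 factors such as Pou2f3, was searched on both strands and was in 0 of these 5 windows, against 570 of 32851 windows (1.74%) of all genes. Its first 7 letters, ATGCAAA, a motif chosen after that search, were in 4.63% of all windows and in 1 of the 5, that of Avil, where they occurred on the minus strand from 115 bases and on the plus strand from 15 bases before the start site. The windows of the 3 genes that rose together with Wnt5a are printed so that these letters can be seen in place. They run 5′ to 3′ on the strand of the gene, with the 7-letter matches in capitals, and are chr10:127000459-127000758 (Avil), chr7:143094593-143094892 (Trpm5) and chr3:55242114-55242413 (the first window of Dclk1).
Avil: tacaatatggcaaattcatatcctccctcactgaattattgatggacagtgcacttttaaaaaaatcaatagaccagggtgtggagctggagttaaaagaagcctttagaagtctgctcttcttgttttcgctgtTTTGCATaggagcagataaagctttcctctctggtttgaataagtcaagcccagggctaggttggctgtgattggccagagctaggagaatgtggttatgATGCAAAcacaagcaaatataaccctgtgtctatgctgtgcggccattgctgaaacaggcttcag
Trpm5: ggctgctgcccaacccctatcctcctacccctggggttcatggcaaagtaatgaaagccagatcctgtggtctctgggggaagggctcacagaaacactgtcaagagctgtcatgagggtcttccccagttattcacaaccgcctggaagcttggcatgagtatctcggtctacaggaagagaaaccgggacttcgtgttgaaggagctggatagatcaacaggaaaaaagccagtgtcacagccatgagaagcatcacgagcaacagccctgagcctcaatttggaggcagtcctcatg
Dclk1: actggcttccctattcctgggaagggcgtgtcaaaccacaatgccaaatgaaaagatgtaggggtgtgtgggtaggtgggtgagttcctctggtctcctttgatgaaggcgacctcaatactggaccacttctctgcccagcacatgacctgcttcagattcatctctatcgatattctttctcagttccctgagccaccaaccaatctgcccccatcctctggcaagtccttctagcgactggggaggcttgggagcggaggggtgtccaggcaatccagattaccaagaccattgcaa
The Avil window is the most AT-rich of the 3, with 43.0% G and C against 53.0% for Trpm5 and 52.7% for Dclk1. A match is a description of letters, and the binding of Pou2f3 was not measured.

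Wnt5a + IgG was compared with complete media + IgG to ask what the ligand alone does to these genes. Calls required a fold change over 1.5 together with a Benjamini-Hochberg p below 0.05 over all genes tested (edgeR quasi-likelihood test), and 8.29% of all genes were called higher and 1.88% lower. Of the 5 members tested, 3 were called higher and 0 lower. The median log2 fold change of the 5 was 1.32, against 0.00506 over all genes tested.

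Avil encodes advillin, a villin family protein that bundles actin in the apical tuft. Its values in complete media had a lowest of 1.33, a median of 2.14 and a highest of 4.17 CPM. With Wnt5a they were 7.72, 11.9 and 18.1 CPM, so every Wnt5a library was above every complete media library, a separation that 6.85% of all genes showed in this direction. The log2 fold change was 2.35 (SE 0.31, adjusted p = 1.41e-06). Under 45 alternative settings the log2 fold change stayed between 2.19 and 2.58, with an adjusted p between 9.76e-12 and 0.000148. Vil1, a relative of Avil in the brush border (mean 766 CPM), shares no stretch of 50 bases with it and differed by a log2 of 0.43 (SE 0.08, adjusted p = 0.000304), below the fold change cutoff.

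Trpm5 is the calcium-activated cation channel that depolarizes the cell at the end of the taste cascade. It ranged from 0.730 to 4.89 CPM in complete media (median 2.78) and from 1.92 to 16.5 CPM with Wnt5a (median 6.21). The conditions overlapped, and 3 of the 6 Wnt5a libraries were above the highest complete media library. The log2 fold change was 1.32 (SE 0.40, adjusted p = 0.0162; 0.00446 to 0.14 over the alternatives). Wnt5a + IgG replicate 1 held the highest value, 16.5 CPM, and without it the log2 fold change was 0.90 with an adjusted p of 0.117. The call was also lost with voom and limma on quantile-normalized values, the study's stated method (log2 fold change 0.89, adjusted p = 0.14), with voom on TMM-scaled values (adjusted p = 0.0841) and with only the 2 conditions in the model (adjusted p = 0.0583).

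Dclk1, a microtubule-associated kinase, ranged from 0 to 2.73 CPM in complete media (median 1.26) and from 1.54 to 6.46 CPM with Wnt5a (median 3.93). In complete media its counts were 16, 0, 23, 1, 11 and 37 in replicates 1 to 6, so that replicates 2 and 4 had next to none, while 5 of the 6 Wnt5a libraries were above the highest complete media library. The log2 fold change was 1.77 (SE 0.60, adjusted p = 0.0314; 0.0127 to 0.0697 over the alternatives). It did not pass when complete media replicate 2 (adjusted p = 0.065), 4 (0.0697) or 5 (0.0606) was left out, without Wnt5a + IgG replicate 2 (0.0672) or 4 (0.0536), and with only the 2 conditions in the model (0.0542). The direction was the same in each. With voom on TMM-scaled values the log2 fold change was 2.78.

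Pou2f3 ranged from 1.24 to 5.00 CPM in complete media (median 2.60) and from 0 to 3.89 CPM with Wnt5a (median 3.07). The log2 fold change was −0.14 (SE 0.47, adjusted p = 0.872), with a 95% confidence interval from −1.11 to 0.82, which leaves out a rise as large as that of Avil. Its only 0 was in Wnt5a + IgG replicate 1, the library that held the highest Trpm5 and the highest Avil of its condition. Il17rb, which pairs with Il17ra to bind Il25, ranged from 1.01 to 2.66 CPM in complete media (median 2.02) and from 0.847 to 2.96 CPM with Wnt5a (median 1.91). Its log2 fold change was −0.01 (SE 0.41, adjusted p = 0.988, 95% confidence interval −0.85 to 0.83), and the conditions overlapped throughout.

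**Figure D2:**
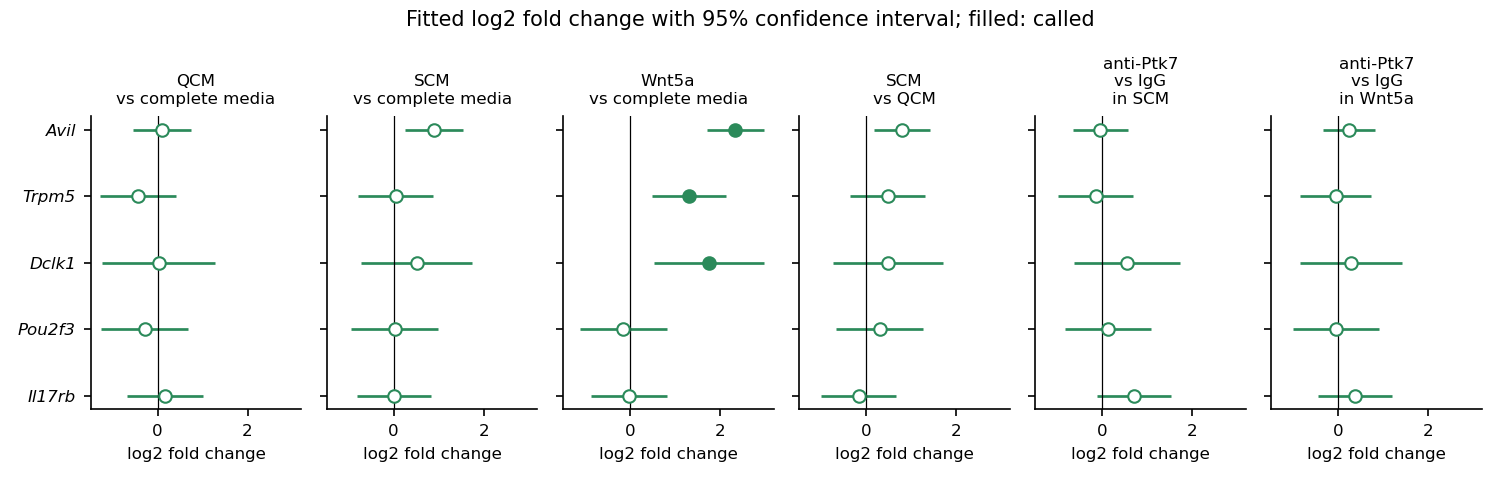
The horizontal axis is the fitted log2 fold change of each of the 5 tested members with its 95% confidence interval, in 6 comparisons, and filled points were called. The 3 filled points are Avil (2.35), Dclk1 (1.77) and Trpm5 (1.32) with Wnt5a, and the intervals of Avil for SCM against complete media (0.26 to 1.53) and against QCM (0.17 to 1.42) lie above 0 although neither was called.

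Reads of 5 members can be shared with a neighbour on the other strand, since the library kit does not mark the strand. Avil shares 165 coding bases with exons of Tsfm (mean 84.2 CPM), Trpm5 shares 155 with Tssc4 (51.8 CPM) and Il17rb shares 141 with Actr8 (59.9 CPM), all with more counts than the member itself. Alox5ap shares 82 with Gm19719 (0.0229 CPM) and Dclk1 shares 87 with Gm42609 (0.014 CPM), both antisense genes with fewer counts than the member. With Wnt5a, Tsfm was lower by a log2 fold change of −0.52 (SE 0.09, adjusted p = 6.36e-05), below the cutoff, while Avil was higher. Tssc4 differed by 0.03 (SE 0.10, adjusted p = 0.884) and Actr8 by −0.01 (SE 0.08, adjusted p = 0.95). What these reads add to the members was not tested.

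SCM + IgG was compared with complete media + IgG and with QCM + IgG, which separates what senescent fibroblasts add from what conditioned medium does. Against complete media, 0 of the 5 members were called by edgeR without a block, against 4.96% of all genes called higher and 1.12% lower, and 1 had an unadjusted p under 0.05 (24.7% of all genes). That member was Avil, which ranged from 1.87 to 7.37 CPM with SCM (median 4.62), with 4 of 6 libraries above the highest complete media library. Its log2 fold change was 0.89 (SE 0.31, 95% confidence interval 0.26 to 1.53, edgeR adjusted p = 0.0565), just outside the cutoff. Avil was called by DESeq2 (adjusted p = 0.0363) and with the replicate number as a block (log2 fold change 0.87, adjusted p = 0.0281, where 5.82% of all genes were called higher), but not with voom and limma. It was also called without complete media replicate 1 (adjusted p = 0.0447) or 4 (0.0237), SCM + IgG replicate 3 (0.0191), or Wnt5a + anti-Ptk7 replicate 1 (0.0352) or 3 (0.0447), within a range of 0.0191 to 0.316 over all alternatives. The other 4 differed from complete media by log2 fold changes between 0.00 for Il17rb and 0.51 for Dclk1, and each of their intervals included 0.

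Trpm5 with SCM ranged from 1.17 to 4.69 CPM (median 3.05) and Dclk1 from 0.980 to 2.73 CPM (median 1.61). Pou2f3 ranged from 1.63 to 3.85 CPM (median 2.99) and Il17rb from 0.586 to 3.50 CPM (median 1.73). All 4 overlapped with complete media. Against QCM, 0 of the 5 members were called (0.761% of all genes higher and 0.142% lower), and 1 had an unadjusted p under 0.05 (17% of all genes), again Avil, at a log2 fold change of 0.80 (SE 0.31, edgeR adjusted p = 0.167). Avil ranged from 2.09 to 3.58 CPM in QCM (median 2.46), and the conditions overlapped. In QCM against complete media, 0 of the 5 members were called, with none at an unadjusted p under 0.05, and 0.355% of all genes were called higher and 0.0194% lower. DESeq2 and voom with limma also called 0 members in both of these comparisons. The intervals in QCM were wide, from −1.24 to 1.29 for Dclk1 and from −0.55 to 0.75 for Avil.

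Anti-Ptk7 was compared with IgG in SCM and with Wnt5a, which describes how the members differ when the antibody is added. With edgeR 0 of the 5 members were called in SCM (0.581% of all genes higher and 0.645% lower), 0 with Wnt5a (0.452% higher and 0.432% lower) and 0 for the difference between the 2 effects (0% in either direction), with none at an unadjusted p under 0.05, and DESeq2 and voom with limma called none. Avil with Wnt5a + anti-Ptk7 ranged from 6.77 to 28.3 CPM (median 12.9), against 7.72 to 18.1 CPM with Wnt5a + IgG. Its log2 fold change was 0.23 (SE 0.28, adjusted p = 0.779, 95% confidence interval −0.34 to 0.81). The Avil rise of 2.35 with Wnt5a uses the same Wnt5a + IgG libraries, and whether that rise needs Ptk7 was not tested. Trpm5 ranged from 4.87 to 9.52 CPM (median 6.65) and differed by −0.06 (SE 0.39, 95% confidence interval −0.85 to 0.73). Dclk1 ranged from 1.56 to 8.23 CPM (median 4.56) and differed by 0.28 (SE 0.56, 95% confidence interval −0.85 to 1.41). Pou2f3 (1.48 to 4.88 CPM, median 2.10) differed by −0.05 and Il17rb (1.17 to 3.43 CPM, median 2.55) by 0.38, and both overlapped with their IgG controls.

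In SCM, the largest difference with the antibody was that of Il17rb, which ranged from 0.584 to 5.13 CPM with anti-Ptk7 (median 3.40) and from 0.586 to 3.50 CPM with IgG. Its log2 fold change was 0.71 (SE 0.41, 95% confidence interval −0.12 to 1.53, edgeR adjusted p = 0.386), and it was not called. With the replicate number as a block it was 0.85 (SE 0.41, adjusted p = 0.244), also without a call. Dclk1 with SCM + anti-Ptk7 split into 3 libraries at 0.373 to 0.855 CPM and 3 at 3.58 to 5.11 CPM. It differed from its IgG control by 0.55 (SE 0.58, 95% confidence interval −0.63 to 1.74, edgeR adjusted p = 0.679). Avil ranged from 3.14 to 5.86 CPM (median 4.37) and differed from its IgG control by −0.04 (SE 0.30, 95% confidence interval −0.65 to 0.58). Trpm5 (1.31 to 5.41 CPM, median 2.50) differed by −0.14 and Pou2f3 (0.559 to 4.87 CPM, median 3.34) by 0.14.

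The conditions were ordered by the mean log2 CPM of each detected member, and the 25 pairs of neighbours in these orders were tested by two-sided exact permutation. For Avil, complete media was lowest, followed by QCM, the SCM pair and the Wnt5a pair, with IgG below anti-Ptk7 in each pair. Its step from SCM + anti-Ptk7 to Wnt5a + IgG was 1.42 on the log2 scale (exact permutation p = 0.00216, the smallest that 6 against 6 can give, adjusted p = 0.0541 over the 25), and that from QCM to SCM + IgG was 0.69 (exact permutation p = 0.039, adjusted p = 0.487). Dclk1 had the same order as Avil, and its largest step, 1.05, was also that from SCM + anti-Ptk7 to Wnt5a + IgG (exact permutation p = 0.115, adjusted p = 0.717). For Trpm5 both Wnt5a conditions came last, above SCM + IgG by a step of 1.04 (exact permutation p = 0.0671, adjusted p = 0.559). For Pou2f3, Wnt5a + IgG came first and SCM + IgG last, and for Il17rb SCM + IgG came first and SCM + anti-Ptk7 last, with no step of either gene over 0.31. A lone pair at the smallest p cannot pass an adjusted p of 0.05 over 25 pairs, so these adjusted values do not show that neighbours are alike.

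The members were compared with one another library by library. Over the 36 libraries, Pearson's r of log2 CPM was 0.643 for Trpm5 and Avil, 0.555 for Dclk1 and Avil and 0.367 for Dclk1 and Trpm5. After the condition means were removed these were 0.163, −0.0544 and −0.0677. The highest value within conditions was 0.45, for Dclk1 and Pou2f3, and the lowest −0.335, for Pou2f3 and Avil. The libraries share their condition, depth and a common scaling, and these values describe them without a test.

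**Figure D3:**
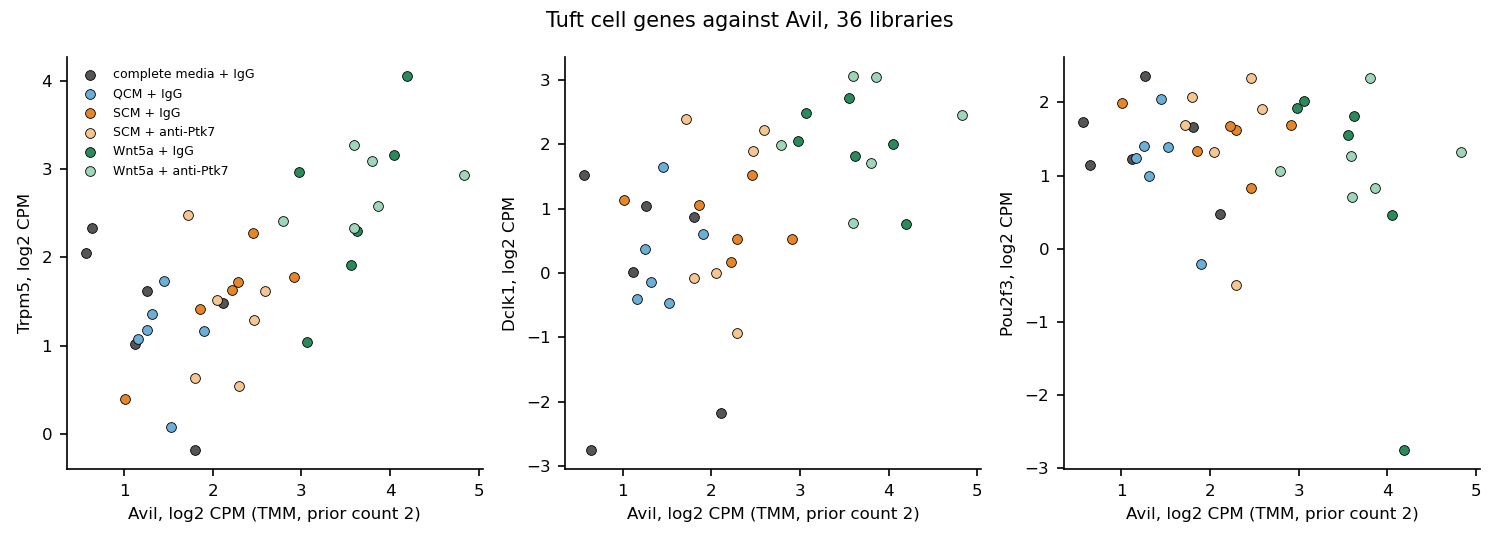
The horizontal axis is the log2 CPM of Avil and the vertical axes are those of Trpm5, Dclk1 and Pou2f3, with 1 point for each of 36 libraries coloured by condition. Of the 12 Wnt5a libraries, 11 lie to the right of every other library in each panel (Wnt5a + anti-Ptk7 replicate 3, at 6.77 CPM of Avil, is to the left of SCM + IgG replicate 5, at 7.37 CPM). On the vertical axis the 12 overlap with the others. They span 1.92 to 16.5 CPM of Trpm5 (r = 0.643), where the highest other library is at 5.41 CPM. For Dclk1 (r = 0.555) they span 1.54 to 8.23 CPM, where the highest other library is at 5.11 CPM. The lowest Pou2f3 point is the Wnt5a + IgG library without a Pou2f3 count.

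The mean z score of the 5 detected members was also correlated with every other protein-coding gene tested. The most alike over 36 libraries included Mfsd4a (r = 0.773), Adgrg1 (0.741), Fn1 (0.738), Gab1 (0.732), Vil1 (0.728), Nr1d1 (0.725), Alcam (0.723), Auts2 (0.722) and Ank3 (0.721). With condition means removed, the first were Nuak2, Bicral (0.594) and Pde1b (0.592), followed by Mxra8, Shisa7, Itgb7, Rbmx, Cdan1, Arfgap3 and Man2b1 at 0.538 to 0.574. No gene was in both sets of 10. These are the highest among all genes tested and have no p.

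A wider list of 55 other tuft cell genes covered taste transduction, eicosanoid synthesis, transcription factors, the cytokine axis, and cytoskeleton and signalling. Of these, 23 were under 0.5 CPM, among them defining tuft genes. The taste G protein gene Gnat3 had 13 counts in all 36 libraries, the succinate receptor gene Sucnr1 had 1, and Chat, for acetylcholine synthesis, had 3. The means of the phospholipase gene Plcb2 (0.170 CPM), the transcription factor gene Gfi1b (0.117 CPM) and Siglecf (0.0974 CPM) were also low, and Il4 and Il13, type 2 cytokines made by immune cells, had no counts. The other 32 were detected, among them the tuft cell genes Gng13 (mean 2.21 CPM), Rgs13 (1.82), Lrmp (1.40), Hpgds (1.40) and Spib (1.04), so that some defining genes of the cell were present at low levels and others at or near 0. None of these named genes was called in any comparison. From complete media to Wnt5a + IgG, the mean went from 2.01 to 2.61 CPM for Gng13 and from 1.60 to 1.65 for Rgs13. It went from 1.83 to 1.58 for Lrmp, from 0.748 to 1.05 for Hpgds and from 1.05 to 1.56 for Spib.

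Of the 34 genes of the wider list that were tested, 10 were called higher and 0 lower with Wnt5a, and 8 higher and 0 lower with SCM, both against complete media, where 8.29% and 4.96% of all genes were called higher and 1.88% and 1.12% lower. With the replicate number as a block, Itpr2 (log2 fold change 0.59, adjusted p = 0.00355) was also called higher with Wnt5a, and Ccdc28b (−0.59, adjusted p = 0.0401) was called lower, where 8.62% of all genes were called higher and 2.39% lower. The list median log2 fold change was 0.51 with Wnt5a and 0.19 with SCM. The prostaglandin synthases Ptgs1 and Ptgs2 had log2 fold changes of 3.99 (SE 0.69, adjusted p = 7.31e-05) and 3.55 (SE 0.48, adjusted p = 1.86e-06) with Wnt5a, and of 2.42 (SE 0.69, adjusted p = 0.0184) and 2.17 (SE 0.47, adjusted p = 0.00181) with SCM. Nebl, an actin-binding protein gene, rose by 4.81 (SE 1.01, adjusted p = 0.000679) with Wnt5a and by 3.65 (SE 1.04, adjusted p = 0.0173) with SCM, from a mean of 0.0779 CPM in complete media. That mean was 6 counts in replicate 5, the other 5 complete media libraries being at 0, and without replicate 5 the fitted values were 8.12 and 6.96, which then depend on the prior count, so the size of the rise rests on 1 library. The receptor genes Il4ra (1.61 with Wnt5a and 1.05 with SCM) and Il13ra1 (0.78 and 0.87), the transcription factor gene Runx1 (1.60 and 1.23) and the keratin genes Krt18 (1.22 and 1.00) and Krt23 (1.20 and 1.48) were called with both. The calls with Wnt5a also included Itpr3, an inositol trisphosphate receptor of the taste cascade (0.66, adjusted p = 0.00773), and Sh2d7 (2.64, SE 0.95, adjusted p = 0.0412). The log2 fold change of Sh2d7 with SCM was 2.26 (SE 0.95, 95% confidence interval 0.32 to 4.19, adjusted p = 0.126), and Wnt5a was not tested against SCM. Krt18, Il4ra, Il13ra1, Runx1 and Itpr3 are also used by other epithelial cells, with means of 43.0 CPM or more. Ptgs1 and Il4ra lost their SCM calls without 1 library (Ptgs1 without complete media replicate 3, adjusted p = 0.0504, and Il4ra without SCM + IgG replicate 1, 0.0539, or 5, 0.0518), and Nebl lost its SCM call with voom (adjusted p = 0.192 and 0.226). Sh2d7 kept its call in 33 of 44 alternatives, and lost it without complete media replicate 1, 2, 3 or 5 or Wnt5a + IgG replicate 2, 4, 5 or 6 (adjusted p = 0.0606 to 0.085), with voom on quantile-normalized (0.132) or TMM-scaled values (0.17), and without the low-count filter (0.0673). Without Wnt5a + IgG replicate 1, the log2 fold change of Itpr3 was 0.55, under the fold change cutoff. Of the genes called, 1, Itpr3, belongs to taste transduction, where 5 of 13 were tested.

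**Figure D4:**
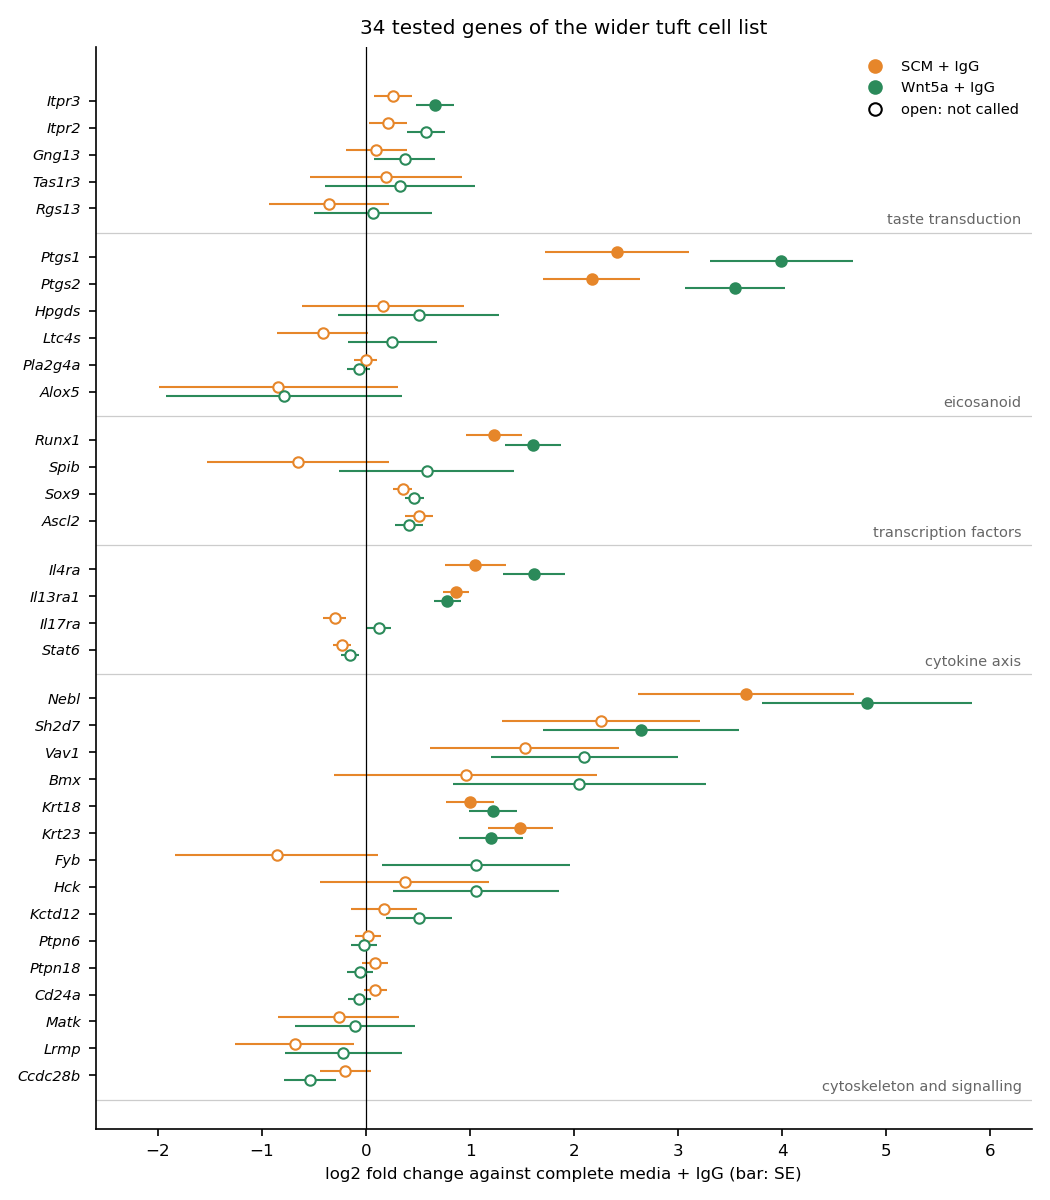
The horizontal axis is the log2 fold change against complete media + IgG with its SE, for the 34 tested genes of the wider list, with SCM + IgG in orange and Wnt5a + IgG in green and filled points for called genes. The farthest points to the right are Nebl (4.81) and Ptgs1 (3.99) with Wnt5a, followed by Nebl with SCM (3.65) and Ptgs2 with Wnt5a (3.55), where both Nebl points rest on 1 complete media library above 0, and the farthest taste transduction gene is Itpr3 (0.66).

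Against QCM, SCM raised 3 genes of the wider list, Ptgs2 (log2 fold change 1.70, adjusted p = 0.0431), Il13ra1 (0.69, adjusted p = 0.0033) and Krt23 (1.12, adjusted p = 0.0472), where 0.761% of all genes were called higher. With the replicate number as a block these were 6, with Runx1, Krt18 and Il4ra, where 2.74% of all genes were called higher. In that fit Krt23 was at 1.09 (SE 0.09, adjusted p = 4.91e-10) and Ptgs2 at 1.84 (SE 0.27, adjusted p = 1.77e-05). The fits with 1 library left out had no block. Ptgs2 lost its call without QCM + IgG replicate 2, 3, 4 or 5, SCM + IgG replicate 1, 3, 4, 5 or 6, or Wnt5a + IgG replicate 6 (adjusted p = 0.0508 to 0.145), and Krt23 in 24 of 45 alternatives (up to 0.162), nearly all with 1 library left out. Il13ra1 kept its call in all 45. QCM against complete media gave 0 calls in the list with edgeR and no block, as did anti-Ptk7 in SCM, anti-Ptk7 with Wnt5a and the difference between the antibody effects. At an unadjusted p under 0.05 these held 2, 6, 3 and 0 of the 34 genes, against 12%, 17.1%, 15% and 3.88% of all genes, so these shares of the list were near or below the background. With the block, 2 genes were lower with anti-Ptk7 in SCM, Krt23 (−0.66, adjusted p = 1.11e-05) and Ptgs2 (−1.15, adjusted p = 0.00611), and 1 with Wnt5a, Ptgs2 (−0.82, adjusted p = 0.0492), where 1.52% and 0.8% of all genes were called lower.

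Markers of other cells that express some of these genes were read beside them. Of 10 leukocyte markers 7 were under 0.5 CPM, with Tyrobp and Adgre1 at 0 in every library, and their summed level was 13.9 to 18.8 CPM in complete media and 14.5 to 20.4 CPM with Wnt5a, most of it Csf1r. All 8 fibroblast markers were under 0.5 CPM. The summed level of 8 enteroendocrine markers, cells that can express Avil and Dclk1, was 529.8 to 699 CPM in complete media and 648 to 761 CPM with Wnt5a. Of these, Neurog3 was lower with SCM (log2 fold change −0.83, adjusted p = 0.00543) and with Wnt5a (−1.33, adjusted p = 1.38e-05), Cck was higher in QCM (0.60, adjusted p = 0.0112) and lower with anti-Ptk7 in SCM (−0.87, adjusted p = 0.00012) and with Wnt5a (−0.83, adjusted p = 0.000155), and Sct was lower with anti-Ptk7 in SCM (−0.75, adjusted p = 0.00588). Among 8 secretory fate genes, Neurog3 was the only one called, in the same 2 comparisons. Among 5 epithelial markers, Krt8 and Krt20 were higher with SCM and with Wnt5a and Cdh1 with Wnt5a, and their summed level was 4461 to 5159.95 CPM in complete media and 6782 to 11362 CPM with Wnt5a. The part of these markers in the rise of Avil, Trpm5 and Dclk1 was not tested.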

How the data were processed

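Per the labels and the study's methods, cDNA was made from total RNA with Smart-Seq V4 and libraries with Nextera XT. The authors aligned reads with GSNAP to mm10 (both in the submitters' processing notes) and counted reads within coding sequences. They deposited whole-number counts per gene, without normalization, in 36 files. Strand use, the gene annotation and the handling of reads shared by overlapping genes are not given in the sources used here. The study tested with voom and limma on quantile-normalized values.

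Libraries were grouped by their labels. Symbols and positions came from GENCODE vM21 (GRCm38), with 52489 of 52636 identifiers matched. With R 4.3.3, genes kept by filterByExpr (15497) were scaled by TMM (factors 0.908 to 1.03) and tested with edgeR 4.0.16 (glmQLFit, glmQLFTest) in 1 model of 6 condition means. Calls used a fold change over 1.5 with an adjusted p (Benjamini-Hochberg) below 0.05. Levels are TMM-scaled CPM, and log2 CPM used a prior count of 2. In simulated data for Wnt5a against complete media (15270 genes), the test recovered 64 of 90 changes of log2 1 and 93 of 107 of log2 2, with 7 false calls. The changed genes were drawn from all genes tested, and libraries were simulated without a shared replicate effect. Over all genes tested, the median fitted biological coefficient of variation was 19.3% and the median level 22.4 CPM. The tested members had 34.3% to 67.4% at 2.25 to 6.81 CPM, so these recovery rates do not hold for them. Alternatives were voom with limma 3.58.1, DESeq2 1.42.0, other scalings, filters and fold cutoffs, only the groups compared, a replicate block and each library left out. Members, lists, markers, tests and the rule for naming genes (all members, list genes called in any comparison, the 10 most alike genes, of which 1 is not reported here) were chosen with earlier results of these data known. The design text names 6 mice, without saying that replicate numbers mark them. Same-numbered libraries deviated together slightly (mean r 0.092 against −0.018 for different numbers, 34 of 90 pairs over 0.1). The main model left the numbers out. They were taken as pairing libraries only in the block alternative, which is given where it changed a call. The block called more genes, such as 2.74% of all genes higher in SCM against QCM, where the main model called 0.761%. The study's table of the whole series repeats the same counts and was not used.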

Additional observations from a re-analysis of the deposited data

Results flagged for a closer look

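A library was set apart where the gap between the highest or lowest value of a condition and its nearest neighbour exceeded Dixon's 95% critical value for 6 samples. Of 39 sets of 6 values with any spread (7 genes, 6 conditions, 3 sets all at 0), 6 were set apart. In 3 of these only 1 library was above 0, which sets it apart whatever its count, and of the 36 sets with at least 2 values above 0, 3 were set apart, where chance gives about 1 in 20. Avil was 28.3 CPM in Wnt5a + anti-Ptk7 replicate 1, where the other 5 libraries held 6.77 to 14.4 CPM. Dclk1 was 3 CPM in QCM + IgG replicate 2, against 0.579 to 1.37 CPM in the others. Pou2f3 was 4.88 CPM in Wnt5a + anti-Ptk7 replicate 5, against 1.48 to 2.35 CPM in the others. Il25 was at 0 in all but 1 library of 3 conditions, so that library was set apart in each, with 0.586 CPM (9 counts) in SCM + IgG replicate 1, 0.247 CPM (4 counts) in Wnt5a + IgG replicate 4 and 0.0712 CPM (1 count) in SCM + anti-Ptk7 replicate 3. No difference between the antibody effects in SCM and with Wnt5a was called for any member.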

How the results depend on the processing

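No called value reversed its direction, while log2 fold changes near 0 that were not called took either sign, such as that of Pou2f3 with Wnt5a (−0.74 to 0.11). In the counts of calls, 677 values under an alternative were within 1.5 times the value reported and 22 were not, and of the values for single genes 2451 stayed on the same side of the threshold, 61 fell below it and 7 rose above it. For members with SCM against complete media the count was 1 with DESeq2, 1 with the replicate block and 0 to 1 with 1 library left out, in place of 0. For members with Wnt5a it was 1 with only the groups compared and 2 to 3 with 1 library left out, in place of 3. For the wider list in SCM against QCM it was 6 with the replicate block and 1 to 4 with 1 library left out, in place of 3. For the wider list with anti-Ptk7 in SCM it was 2 with the replicate block and 0 to 1 with 1 library left out, and with anti-Ptk7 and Wnt5a it was 1 with the replicate block and 1 without the fold change cutoff, in place of 0. The number of neighbouring conditions that differed was 0, and 0 to 2 with 1 library left out (2 without Wnt5a + IgG replicate 4). Beside these, the replicate block changed no call of a member. The members had few counts, and libraries of a condition differed by more than counting error in each of them.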
